A study of Mus musculus with 30 samples.

Results

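The unfolded protein, amino acid and heat stress genes were followed in 2 mouse cell lines with and without transfection. The list held 40 genes in 3 arms: 17 genes of the ATF4 arm, 14 of the endoplasmic reticulum (ER) arm and 9 heat shock genes, the last with the oxidative stress gene *Hmox1*. A gene was measured by the transcript cluster of the array that was annotated with its symbol alone, and by the one with the highest mean over the 30 arrays where it had several. This gave 38 of the 40 genes (17, 13 and 8 by arm), out of 22180 genes with such a cluster in the whole table. *Pdia4* had only a cluster shared with a microRNA gene, and *Hsp90ab1* had no cluster of its own, so the level of neither is described.

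Each line gave 5 groups of 3 arrays. Cells received p183AT (miR-183 family, Atoh1 and a red fluorescent protein, RFP), p183T (miR-183 family and RFP), pAT (Atoh1 and RFP) or pT (RFP alone), all from an EF-1α promoter, or were left untransfected (UT). Transfected cells were collected 48 h later by sorting for RFP. iMOP is a single-clone line of otic progenitors from the embryonic mouse cochlea, made with transient c-Myc in *Sox2*-expressing cells and kept in serum-free medium with FGF. The mESCs were of the ES-D3 line, kept with serum and leukemia inhibitory factor on arrested fibroblasts. iMOP cells were transfected with Jet Prime and sorted straight into lysis buffer, whereas mESCs were transfected with Lipofectamine 2000 and sorted into fresh medium with serum. The sources used here do not state that UT cells passed through the sorter. pT against UT therefore holds the reagent, the plasmid, RFP and the sort at once, which cannot be told apart, and reagent and sort handling likewise go with the line. Nothing in the labels ties replicate numbers to shared cultures.

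Cells meet misfolded protein in the ER with the sensors PERK, IRE1 and ATF6. PERK slows translation through the initiation factor eIF2α, and so does GCN2 when amino acids run short; the mRNA of the transcription factor ATF4 is then translated better, and ATF4 with C/EBP partners switches on genes of amino acid supply and of arrest or death at a C/EBP-ATF response element (CARE). IRE1 splices the *Xbp1* mRNA, and XBP1 and cleaved ATF6 act with NF-Y at ER stress response elements (ERSE and ERSE-II) of chaperone and degradation genes. Unfolded protein in the cytosol frees HSF1, which binds heat shock elements (HSE). A level of mRNA on an array shows neither the translation of *Atf4* nor the splicing of *Xbp1*.

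The promoter letters of the 3 arms are shown first because elements of these kinds are known sites of the regulators named above. RefSeq windows of 250 bases before to 50 bases after an annotated start (GRCm38.p6) were at hand for 34 of the 40 genes. Both strands were searched for CARE (TGATGNAA), for ERSE (CCAAT, any 9 bases, CCACG), for ERSE-II (ATTGG, any base, CCACG) and for HSE (GAA, TTC and GAA with any 2 bases between them). ERSE stood in 6 of 13 ER genes with a window (46.2%), in none of 16 ATF4 arm and none of 5 heat shock genes, and in 0.119% of all 32851 windows. These 13 ER genes include *Pdia4*, which was not measured, and leave out *Atf6*, which had no window. The shares of stress genes count genes with a match in any window, whereas those of all count windows, which belong to 27031 genes. CARE stood in 5 of 16 ATF4 arm genes (31.2%) and in *Herpud1* of the ER arm, against 3.97% of all windows. HSE stood in 3 of 5 heat shock genes (*Hsph1*, *Hspd1* and *Hspe1*), against 0.603% of all windows, and ERSE-II in *Herpud1* alone, against 0.0365%. The HSE matches of *Hspd1* and *Hspe1* are the same bases, in windows that overlap, so they are not separate sites. A match describes letters, and its absence says only that these letters are not in the window.

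**Figure D1:**
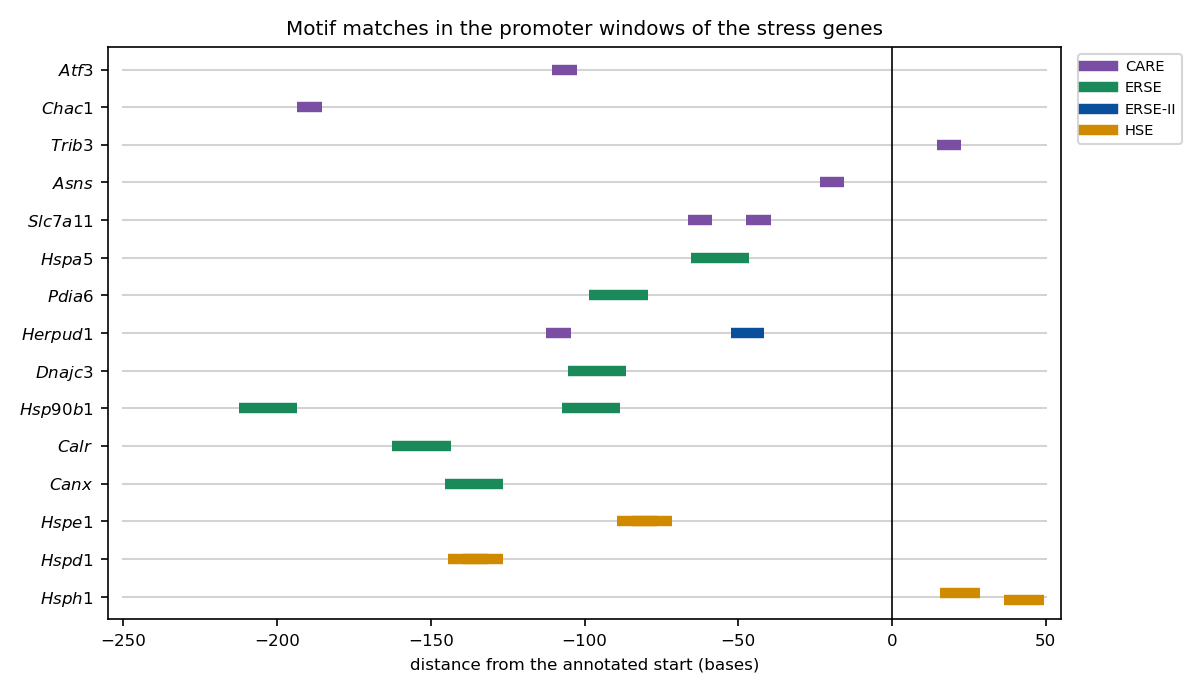
Matches to CARE, ERSE, ERSE-II and HSE (coloured bars) along the promoter windows (grey lines) of the 15 stress genes that hold one, against the distance in bases from the annotated start. ERSE lies in ER genes and HSE in heat shock genes, while CARE lies in 5 ATF4 arm genes and *Herpud1*.

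The 250 bases before the start of *Hspa5*, which codes for the ER chaperone BiP, are printed whole because BiP is the sensor chaperone of the ER arm and its shift differed between the lines. The capitals mark the ERSE, from -65 to -47.
Hspa5 (chr2:34771840-34772089, + strand): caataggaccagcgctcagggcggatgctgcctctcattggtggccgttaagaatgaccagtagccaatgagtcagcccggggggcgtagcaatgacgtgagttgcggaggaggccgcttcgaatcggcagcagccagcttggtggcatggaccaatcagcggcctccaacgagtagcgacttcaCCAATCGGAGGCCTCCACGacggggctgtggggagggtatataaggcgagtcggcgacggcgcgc

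The other ERSE matches are printed with 8 bases on each side, the match in capitals, 5′ to 3′ on the strand of the gene, so that genes with the element can be set beside their shifts. *Hsp90b1* held it at 2 places.
Hsp90b1, first (chr10:86705630-86705664, - strand): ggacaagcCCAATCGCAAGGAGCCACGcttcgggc
Hsp90b1, next (chr10:86705525-86705559, - strand): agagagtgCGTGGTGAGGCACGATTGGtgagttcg
Calr (chr8:84847067-84847101, - strand): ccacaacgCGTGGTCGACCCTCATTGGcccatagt
Canx (chr11:50325792-50325826, - strand): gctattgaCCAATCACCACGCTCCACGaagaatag
Pdia6 (chr12:17266483-17266517, + strand): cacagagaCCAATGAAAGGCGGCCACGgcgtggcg
Dnajc3 (chr14:118937819-118937853, + strand): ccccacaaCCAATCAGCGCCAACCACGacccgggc
Herpud1, ERSE-II (chr8:94386369-94386395, + strand): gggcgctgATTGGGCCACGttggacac

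The CARE matches of the ATF4 arm and of *Herpud1* follow in the same form. *Slc7a11* held the element at 2 places, on opposite strands, and *Trib3* held it just after its start.
Atf3 (chr1:191183428-191183451, - strand): tctcgcacTTGCATCAccaagtcc
Trib3 (chr2:152344031-152344054, - strand): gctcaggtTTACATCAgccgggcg
Asns (chr6:7693217-7693240, - strand): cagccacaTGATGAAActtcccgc
Chac1 (chr2:119351041-119351064, + strand): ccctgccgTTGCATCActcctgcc
Slc7a11 (chr3:50443645-50443687, - strand): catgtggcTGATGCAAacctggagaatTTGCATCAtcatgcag
Herpud1 (chr8:94386309-94386332, + strand): acggcgggTTGCATCAgcccgcac

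*Hspd1* and *Hspe1*, which code for the chaperonin of mitochondria and its co-chaperonin, stand head to head on chromosome 1. Their starts lie 95 or 216 bases apart, depending on which of the 2 annotated *Hspd1* starts is taken, and 1 of the *Hspd1* windows shares 285 bases with the *Hspe1* window. The bases before the *Hspe1* start are printed because the pair moved apart in iMOP cells. The capitals mark overlapping HSE matches on both strands, which that *Hspd1* window also holds.
Hspe1 (chr1:55087898-55088147, + strand): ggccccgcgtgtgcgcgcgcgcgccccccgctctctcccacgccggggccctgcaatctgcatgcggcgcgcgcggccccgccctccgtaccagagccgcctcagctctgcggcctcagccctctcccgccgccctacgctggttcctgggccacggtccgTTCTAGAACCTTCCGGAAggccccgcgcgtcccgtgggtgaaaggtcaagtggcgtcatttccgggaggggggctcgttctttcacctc

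Levels below are log2 values as deposited, and a difference of 1 is a doubling. A gene was called where limma's adjusted p was under 0.05 over the 25341 clusters with a symbol; rose and fell are used only of called genes. Replicate arrays correlated at 0.975 to 0.993, and an iMOP pT array, replicate 2, stood farthest from its group. In UT cells 9 of 10 pluripotency markers had means of 5 or more in mESCs and 1 of 10 in iMOP cells. Of 9 otic progenitor markers, 6 had such means in UT iMOP cells and 6 in UT mESCs. The vectors left their own mark, with the hairpin of *miR-96* higher by 3.77 in p183T against pT in iMOP cells and by 5.54 in mESCs, and *Atoh1* higher by 1.04 in pAT against pT in iMOP cells (limma adjusted p = 0.0660, not called) and by 1.14 in p183AT against pT in mESCs.

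The first question was what transfection with the RFP vector did to the stress genes. In iMOP cells 9 of the 38 genes rose and 12 fell in pT against UT, where 19.4% of all clusters rose and 21.9% fell (41.3% in all). In mESCs 10 of 38 rose and 1 fell, where 7.07% rose and 6.07% fell (13.1% in all). Among the 8052 clusters with a mean of at least 6 and a known gene span, tested by themselves, 21.6% rose and 45.3% fell in iMOP cells, and 16.1% rose and 5.08% fell in mESCs. Of the 35 stress genes in that set 8 rose (22.9%) and 13 fell (37.1%) in iMOP cells, and 11 rose (31.4%) and 1 fell (2.86%) in mESCs. The median shift of the 38 genes was -0.05 in iMOP cells, against 0.09 over all clusters, and 0.27 in mESCs, against -0.02. The share that fell in iMOP cells was thus above that of all clusters and below that of well-expressed clusters, and the share that rose in mESCs was above both. Leaving out iMOP pT replicate 2 reduced the iMOP calls to 7 higher and 7 lower, and leaving out mESC pT replicate 3 reduced those of mESCs to 5 higher and 1 lower. Without mESC UT replicate 1, mESC UT replicate 3 or mESC pT replicate 2 the mESC calls were 6 higher and 1 lower each time, and without iMOP UT replicate 2 those of iMOP cells were 7 higher and 8 lower. With mESC pT replicate 3 left out 13.2% of the stress genes rose in mESCs, against 5.23% of all clusters, and with iMOP pT replicate 2 left out 18.4% fell in iMOP cells, against 19.4% of all clusters. Of the 21 iMOP calls 13 held whichever single array was left out, as did 6 of the 11 mESC calls.

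**Figure D2:**
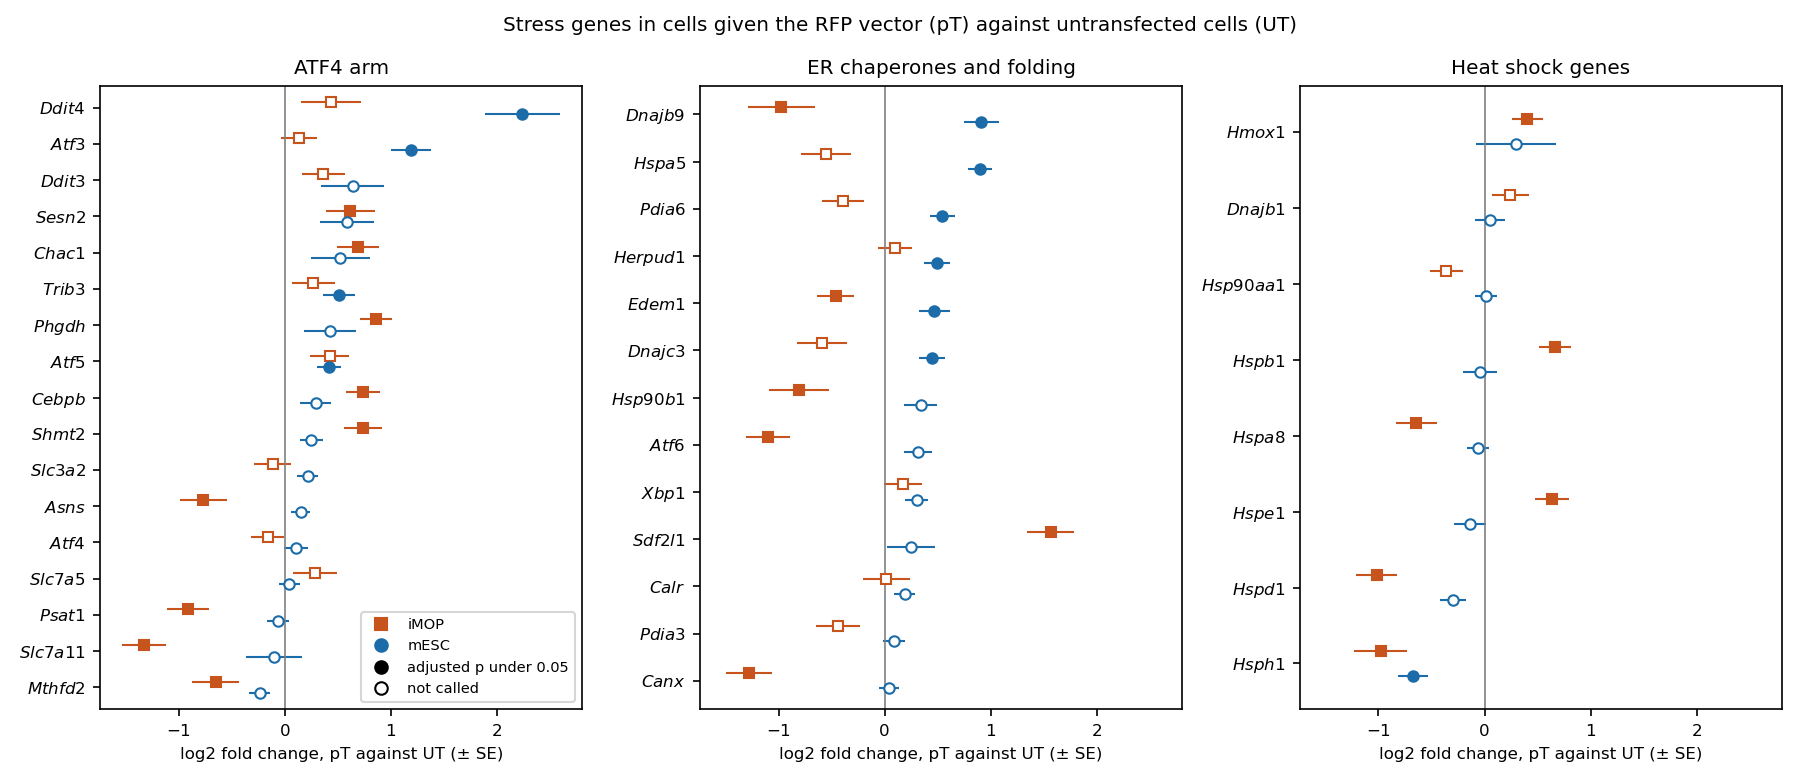
log2 fold change of each measured stress gene in pT against UT, with its standard error, in iMOP cells (squares, upper) and mESCs (circles, lower); filled symbols are called at a limma adjusted p under 0.05. ER genes lie mostly left of 0 in iMOP cells (median -0.46) and right of 0 in mESCs (median 0.34).

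By median shift the ER arm showed the widest gap between the lines. In iMOP cells 5 of 13 genes fell and 1 rose (median -0.46), and in mESCs 6 rose and none fell (median 0.34). Among all clusters 21.9% fell in iMOP cells and 7.07% rose in mESCs, and among well-expressed ones 45.3% and 16.1%. The median shift of well-expressed clusters was -0.28 in iMOP cells and 0.06 in mESCs. The share of the arm that rose in mESCs was thus above that of all and of well-expressed clusters. The well-expressed shares come from a test of those clusters alone, so the share that fell in iMOP cells is not ranked against 45.3%. In that test *Hspa5* (limma adjusted p = 0.0457) and *Dnajc3* (0.0351) were also called lower in iMOP cells, and *Xbp1* higher in mESCs (0.0399). The chaperone gene *Hspa5* (BiP) and its cofactor gene *Dnajb9* had the largest shifts of the arm in mESCs. *Hspa5* was 8.23, 8.05 and 8.42 in the 3 iMOP pT arrays, against 8.65, 8.87 and 8.84 in iMOP UT, and 8.91, 9.08 and 8.79 in mESC pT, against 7.85, 8.02 and 8.22 in mESC UT. Both pairs of groups were apart without overlap, in opposite directions. The shift was -0.56 ± 0.24 (SE) in iMOP cells (limma adjusted p = 0.0660, not called) and 0.90 ± 0.12 in mESCs (adjusted p = 6.8e-05), a 1.86-fold rise. Some alternatives called the iMOP shift of *Hspa5*, with limma adjusted p of 0.0162 to 0.0467. These were 1 fit of all 30 arrays, the compared arrays alone, the replicate block, dim clusters left out and well-expressed clusters alone. Removal of the span trend, given below, called it too.

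*Dnajb9* (ERdj4), a co-chaperone of BiP and a classical target of XBP1, was 4.80, 4.68 and 5.22 in iMOP pT, against 5.72, 6.12 and 5.79 in iMOP UT, and 8.48, 8.68 and 8.53 in mESC pT, against 7.51, 7.67 and 7.77 in mESC UT. It fell in iMOP cells (-0.98 ± 0.32, adjusted p = 0.0191) and rose in mESCs (0.91 ± 0.17, adjusted p = 0.00162) without overlap of the arrays. The iMOP call was lost without iMOP UT replicate 2 or iMOP pT replicate 2 (adjusted p up to 0.0775), and the iMOP pT mean lay below 5, the level taken here as dim. *Pdia6*, a protein disulfide isomerase, was 9.89, 9.70 and 10.05 in iMOP pT, against 10.16, 10.38 and 10.28 in iMOP UT, and 8.60, 8.80 and 8.65 in mESC pT, against 8.04, 8.21 and 8.18 in mESC UT. Its groups were again apart in opposite directions, with -0.39 in iMOP cells (not called) and a rise of 0.54 in mESCs (adjusted p = 0.00642).

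The other 3 ER genes that rose in mESCs were *Herpud1*, which helps degrade ER proteins (0.49), *Edem1*, a lectin that hands misfolded glycoproteins to degradation (0.47), and *Dnajc3* (p58IPK), a co-chaperone (0.44). These calls were thin. That of *Edem1* was lost without any single array but mESC UT replicate 2 (adjusted p up to 0.181). That of *Dnajc3* was lost without mESC UT replicate 1, mESC UT replicate 2 or mESC pT replicate 3 (up to 0.124), and that of *Herpud1* without mESC UT replicate 1, UT replicate 3, pT replicate 2 or pT replicate 3 (up to 0.0610). Of the 7 ER genes not called in mESCs, each had a shift above 0, between 0.04 (*Canx*) and 0.34 (*Hsp90b1*). In iMOP cells *Herpud1* and *Dnajc3* had shifts of 0.10 and -0.59 and were not called. *Dnajc3* was called lower in the alternatives that called *Hspa5* (limma adjusted p up to 0.0377), apart from removal of the span trend (0.08).

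In iMOP cells the largest falls of the arm were in a chaperone and a sensor. *Canx*, the membrane-bound lectin chaperone calnexin, was 10.47, 9.61 and 10.57 in iMOP pT, against 11.50, 11.49 and 11.50 in iMOP UT, a fall of 1.28 ± 0.22 on the log2 scale (adjusted p = 0.000118). In mESCs it was 11.51, 11.52 and 11.49 in pT, against 11.33, 11.50 and 11.57 in UT, and the groups overlapped (0.04). *Atf6*, the sensor itself, was 6.37, 5.72 and 6.26 in iMOP pT, against 7.57, 7.01 and 7.07 in iMOP UT, and fell by 1.10 ± 0.20 (adjusted p = 0.000289). In mESCs it was 7.37, 7.42 and 7.74 in pT, against 7.11, 7.37 and 7.10 in UT (0.31, not called). *Hsp90b1* (GRP94) and *Edem1* also fell in iMOP cells, by 0.81 and 0.46. The first call was lost without iMOP UT replicate 2, UT replicate 3, pT replicate 1 or pT replicate 2 (adjusted p up to 0.116), and that of *Edem1* without any array but iMOP pT replicate 3 (up to 0.164). *Edem1* has a dimmer cluster, which shifted by 0.23 and was not called.

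*Sdf2l1*, which codes for an ER partner of BiP that keeps clients soluble, went the other way. It was 9.37, 9.99 and 9.58 in iMOP pT, against 7.62, 8.08 and 8.54 in iMOP UT, and 8.86, 8.56 and 8.40 in mESC pT, against 8.62, 8.38 and 8.06 in mESC UT. The iMOP arrays did not overlap and the mESC arrays did. Its rise of 1.56 ± 0.22 in iMOP cells (2.96-fold, adjusted p = 2.32e-05) was the largest of the 38 genes there, and in mESCs its shift was 0.25 (adjusted p = 0.548). *Xbp1* was called in neither line: it was 8.09, 7.78 and 7.77 in iMOP pT, against 7.62, 7.72 and 7.78 in iMOP UT, and 9.15, 9.05 and 9.21 in mESC pT, against 8.90, 8.92 and 8.69 in mESC UT. The shifts were 0.18 (adjusted p = 0.458) and 0.30 (adjusted p = 0.0906), and only the mESC groups were apart. Among the alternatives, the mESC shift of *Xbp1* was called with dim clusters left out, an intensity trend or well-expressed clusters alone (limma adjusted p up to 0.0456). The iMOP shift was called with quantile normalization (0.48, limma adjusted p = 0.0305). The remaining lectin chaperone *Calr* and the isomerase *Pdia3* had shifts of 0.02 and -0.44 in iMOP cells and 0.19 and 0.09 in mESCs.

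Genes with an ERSE match did not share a call. Of the 6, *Hspa5*, *Pdia6* and *Dnajc3* rose in mESCs while *Hsp90b1*, *Calr* and *Canx* were not called there. In iMOP cells *Hsp90b1* and *Canx* fell and the other 4 were not called.

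The ATF4 arm was mixed in iMOP cells, where 5 of 17 genes rose and 4 fell (median 0.29), and in mESCs 4 rose and none fell (median 0.29). All clusters were mixed in iMOP cells too, where 19.4% rose and 21.9% fell, and 7.07% rose in mESCs. Well-expressed clusters had 21.6%, 45.3% and 16.1%. *Atf4* itself was 8.21, 8.31 and 8.29 in iMOP pT, against 8.42, 8.29 and 8.59 in iMOP UT, and 7.94, 8.31 and 8.17 in mESC pT, against 8.02, 8.02 and 8.06 in mESC UT. The groups overlapped in both lines, with shifts of -0.16 ± 0.16 (adjusted p = 0.425) and 0.11 ± 0.11 (adjusted p = 0.618).

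The largest shift of any stress gene in mESCs was that of *Ddit4* (REDD1), an inhibitor of the growth kinase complex mTORC1. It was 9.13, 8.76 and 8.35 in iMOP pT, against 8.33, 8.05 and 8.55 in iMOP UT, where the groups overlapped, and 9.01, 7.88 and 7.88 in mESC pT, against 6.12, 6.17 and 5.75 in mESC UT, where the gap was wide. The rise in mESCs was 2.24 ± 0.36 (4.73-fold, adjusted p = 0.000483), and the iMOP shift was 0.44 ± 0.28 (adjusted p = 0.230). *Atf3*, a transcription factor induced by many stresses, was 5.92, 5.68 and 5.40 in iMOP pT, against 5.12, 5.71 and 5.78 in iMOP UT, and 6.33, 6.88 and 7.12 in mESC pT, against 5.31, 5.75 and 5.71 in mESC UT. It rose by 1.19 ± 0.19 in mESCs (2.28-fold, adjusted p = 0.000416), and its iMOP groups overlapped (0.13). The smaller mESC rises were those of *Trib3*, a pseudokinase gene that ATF4 and CHOP switch on (0.51), and of the transcription factor gene *Atf5* (0.42). The call of *Trib3* was lost without any single array but mESC UT replicate 2, and that of *Atf5* without any but mESC UT replicate 1 (adjusted p up to 0.132 and 0.0983). *Ddit3*, which codes for the death-linked factor CHOP, had shifts of 0.36 in iMOP cells and 0.64 in mESCs and was called in neither. *Trib3* and *Atf5* were not called in iMOP cells (0.27 and 0.42).

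In iMOP cells the metabolic genes of the arm split. *Slc7a11*, the cystine transporter, was 4.59, 3.81 and 4.46 in iMOP pT, against 5.82, 5.31 and 5.71 in iMOP UT, a fall of 1.33 ± 0.20 (adjusted p = 5.32e-05) to a dim level. In mESCs it was dim in both groups, at 2.77, 3.91 and 3.97 in pT, against 3.58, 3.80 and 3.57 in UT, and another, dimmer cluster of the gene shifted by -0.11 in iMOP cells and was not called. The fall of *Slc7a11* was thus seen in 1 cluster of the gene. Within the pathway that makes serine, *Phgdh*, the entry enzyme, rose by 0.86 ± 0.15 (1.82-fold, adjusted p = 0.000139), and *Psat1*, the enzyme after it, fell by 0.91 ± 0.20 (adjusted p = 0.00107). *Phgdh* was 9.49, 9.38 and 9.23 in iMOP pT, against 8.60, 8.39 and 8.52 in iMOP UT, and *Psat1* was 9.17, 8.33 and 8.58, against 9.64, 9.56 and 9.63. Neither pair overlapped. The mitochondrial folate enzymes divided in the same way, *Shmt2* rising by 0.74 and *Mthfd2* falling by 0.65.

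*Cebpb*, a partner factor of ATF4, *Chac1*, which breaks down glutathione, and *Sesn2*, a leucine sensor, rose in iMOP cells by 0.74, 0.69 and 0.62, and *Asns*, asparagine synthetase, fell by 0.77. Without single arrays some of these calls were lost: *Sesn2* without any array but iMOP UT replicate 3 (adjusted p up to 0.215), *Asns* without iMOP UT replicate 1 or pT replicate 2 (up to 0.0676), and *Mthfd2* without iMOP UT replicate 1 or pT replicate 1 (up to 0.0948). None of *Slc7a11*, *Phgdh*, *Psat1*, *Shmt2*, *Mthfd2*, *Asns*, *Chac1*, *Sesn2* and *Cebpb* was called in mESCs. *Slc7a5* and *Slc3a2*, the chains of a transporter of large neutral amino acids, had shifts of 0.29 and -0.11 in iMOP cells and 0.04 and 0.21 in mESCs, and were called in neither. Of the 5 genes with CARE matches in the arm, *Chac1* rose and *Asns* and *Slc7a11* fell in iMOP cells, and *Atf3* and *Trib3* rose in mESCs.

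The heat shock arm did not rise as a group in either line. In iMOP cells 3 of 8 genes rose and 3 fell (median -0.06), and in mESCs 1 fell and none rose (median -0.05). The shares of all clusters were 19.4% higher and 21.9% lower in iMOP cells and 6.07% lower in mESCs. Those of well-expressed clusters were 21.6%, 45.3% and 5.08%. *Hsph1*, a nucleotide exchange factor of the heat shock chaperones, fell in both lines: it was 8.27, 7.67 and 8.34 in iMOP pT, against 8.69, 9.25 and 9.28 in iMOP UT, and 7.55, 7.46 and 7.33 in mESC pT, against 7.94, 8.30 and 8.12 in mESC UT. The arrays did not overlap, and the shifts were -0.98 ± 0.25 (adjusted p = 0.00388) and -0.68 ± 0.14 (adjusted p = 0.00500).

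The mitochondrial pair moved apart in iMOP cells. *Hspd1* was 9.62, 9.20 and 9.78 in iMOP pT, against 10.48, 10.68 and 10.49 in iMOP UT, a fall of 1.02 ± 0.19 (adjusted p = 0.000382). *Hspe1* was 8.0, 8.22 and 8.11 in iMOP pT, against 7.57, 7.44 and 7.39 in iMOP UT, a rise of 0.64 ± 0.16 (adjusted p = 0.00342). In mESCs *Hspd1* was 10.49, 10.67 and 10.52 in pT, against 10.65, 10.91 and 11.01 in UT (-0.30), *Hspe1* shifted by -0.14, and neither was called. The gene of *Hspd1* spans 10.4 kb and that of *Hspe1* 3.17 kb.

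*Hspb1*, a small heat shock protein gene, rose by 0.66 in iMOP cells (4.24, 4.50 and 4.26 in iMOP pT, against 3.88, 3.63 and 3.50 in iMOP UT), at dim levels in both groups, and another cluster of it shifted by 0.47 without a call (adjusted p = 0.0740). *Hmox1*, heme oxygenase, rose by 0.40, a call lost without any array but iMOP UT replicate 3 (adjusted p up to 0.180). *Hspa8*, the constitutive cytosolic chaperone, fell by 0.64 on its brightest cluster, a call lost without iMOP UT replicate 2 or pT replicate 2 (up to 0.0730), while its other 3 clusters shifted by -0.36 to 0.07 and were not called. *Dnajb1*, a co-chaperone gene and a common target of HSF1, had shifts of 0.24 in iMOP cells and 0.05 in mESCs and was called in neither, as was *Hsp90aa1* (-0.36 and 0.01).

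**Figure D3:**
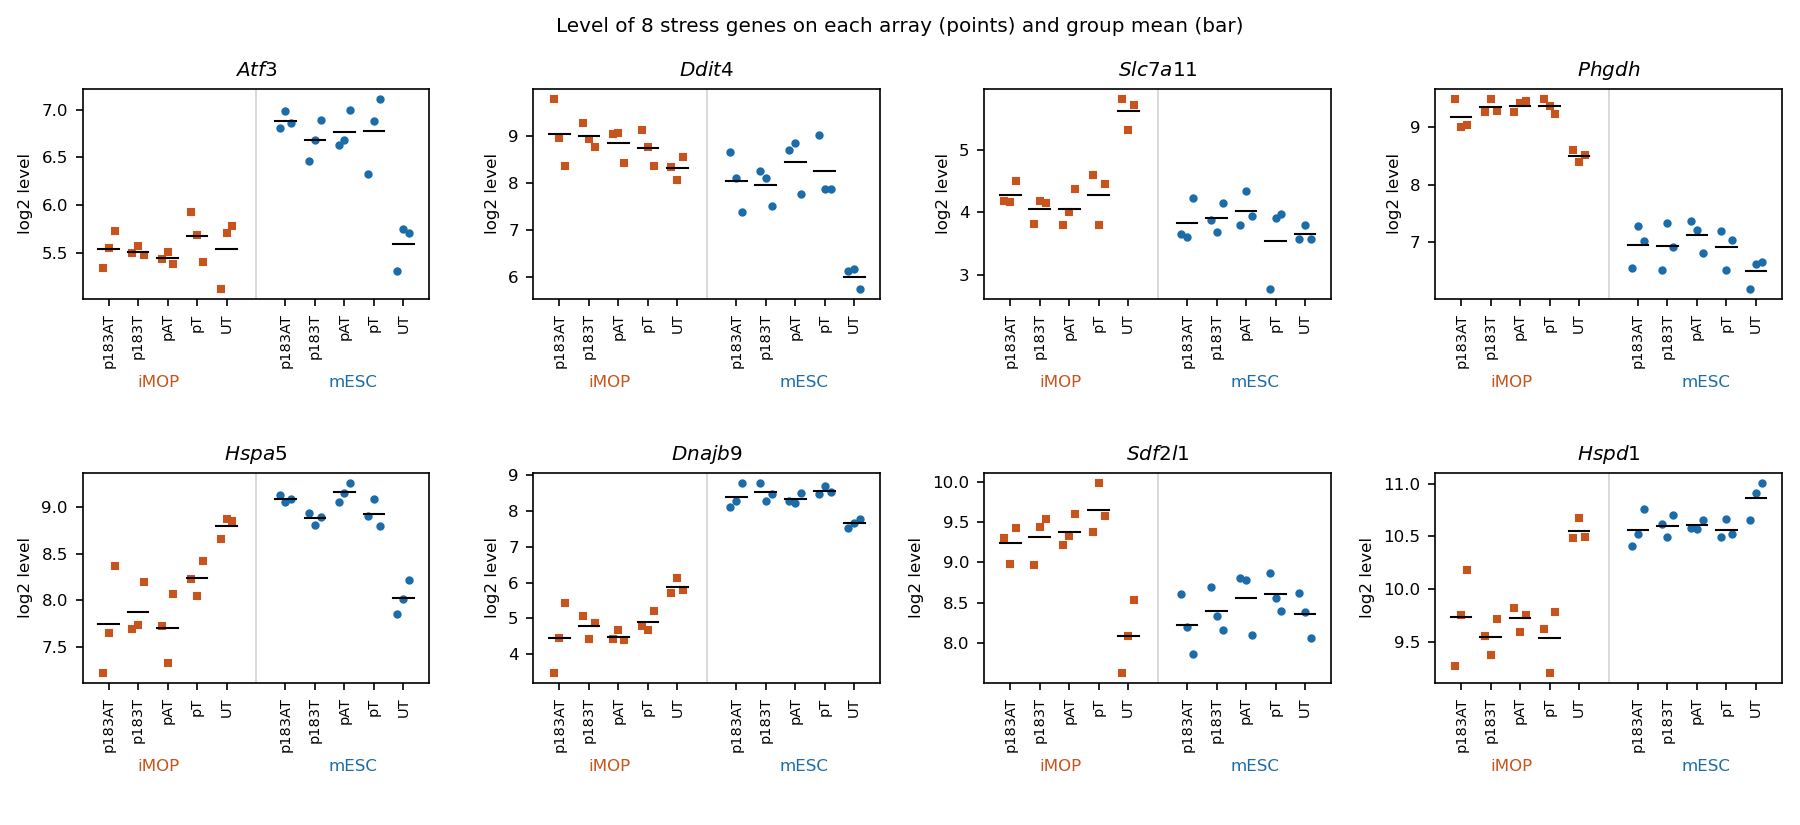
log2 level of 8 stress genes on every array (points) with the group mean (bar), in iMOP cells (left) and mESCs (right), for the vectors p183AT, p183T, pAT, pT and for UT. The 12 transfected arrays of a line lie together, apart from the UT arrays for *Sdf2l1*, *Slc7a11* and *Hspd1* in iMOP cells and for *Ddit4*, *Atf3* and *Dnajb9* in mESCs.

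The shift was then compared between lines in a fit of all 30 arrays, as the iMOP shift minus the mESC shift. Of the 38 genes 15 were lower and 3 higher in iMOP cells, where 20.0% of all clusters were lower and 15.6% higher, 35.6% in all. Of the 35 well-expressed genes with a span 14 were lower (40.0%) and 4 higher (11.4%), against 46.1% and 16.4% of such clusters. The ER arm held 8 of the 15: *Dnajb9* (-1.89 ± 0.39, adjusted p = 0.000355), *Hspa5* (-1.45 ± 0.28, adjusted p = 0.000165), *Atf6* (-1.41), *Canx* (-1.32), *Hsp90b1* (-1.15), *Dnajc3* (-1.03), *Pdia6* (-0.94) and *Edem1* (-0.93). *Sdf2l1* was the ER gene with the opposite difference (1.31 ± 0.33, adjusted p = 0.00244). The median difference of the arm was -0.94, against 0.12 over all clusters, and -0.49 after the median of clusters of like gene span was taken off each gene.

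In the ATF4 arm the difference was called for *Ddit4* (-1.81), *Slc7a11* (-1.23), *Atf3* (-1.06), *Asns* (-0.92) and *Psat1* (-0.85), all lower in iMOP cells. In the heat shock arm *Hspd1* (-0.72) and *Hspa8* (-0.58) were lower, and *Hspe1* (0.78) and *Hspb1* (0.71) higher. The difference held whichever single array was left out for 16 of the 18 genes. That of *Hspd1* was lost without mESC UT replicate 1, iMOP UT replicate 2 or iMOP pT replicate 2 (adjusted p up to 0.0816), and that of *Hspa8* without 9 of the 12 arrays. *Phgdh*, *Shmt2*, *Cebpb* and *Chac1*, which rose in iMOP cells and were not called in mESCs, had differences of 0.17 to 0.48 that were not called. That of *Shmt2* was called with the replicate block, without iMOP UT replicate 1 or iMOP UT replicate 3, or among well-expressed clusters alone, that of *Cebpb* with quantile normalization or without iMOP pT replicate 1, and that of *Phgdh* with the trend of gene span removed.

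A measure that moved with these results was the length of the gene. Over 8052 clusters with a mean of at least 6 and a RefSeq span, the rank correlation of the pT against UT shift with span was -0.55 in iMOP cells and 0.12 in mESCs, across genes that share the same arrays. With the clusters split by span into 5 equal bins, short to long, the median iMOP shift was 0.42, 0.07, -0.36, -0.71 and -0.86. By array, the correlation of the deviation from the mean of the line with span was -0.58 to -0.24 in iMOP pT, against 0.49 to 0.53 in iMOP UT, and lowest in iMOP pT replicate 2; in mESCs it was -0.25 to 0.18 in pT, against -0.29 to -0.02 in UT. Long genes thus stood lower on iMOP pT arrays than on iMOP UT arrays, and what made them so was not tested.

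**Figure D4:**
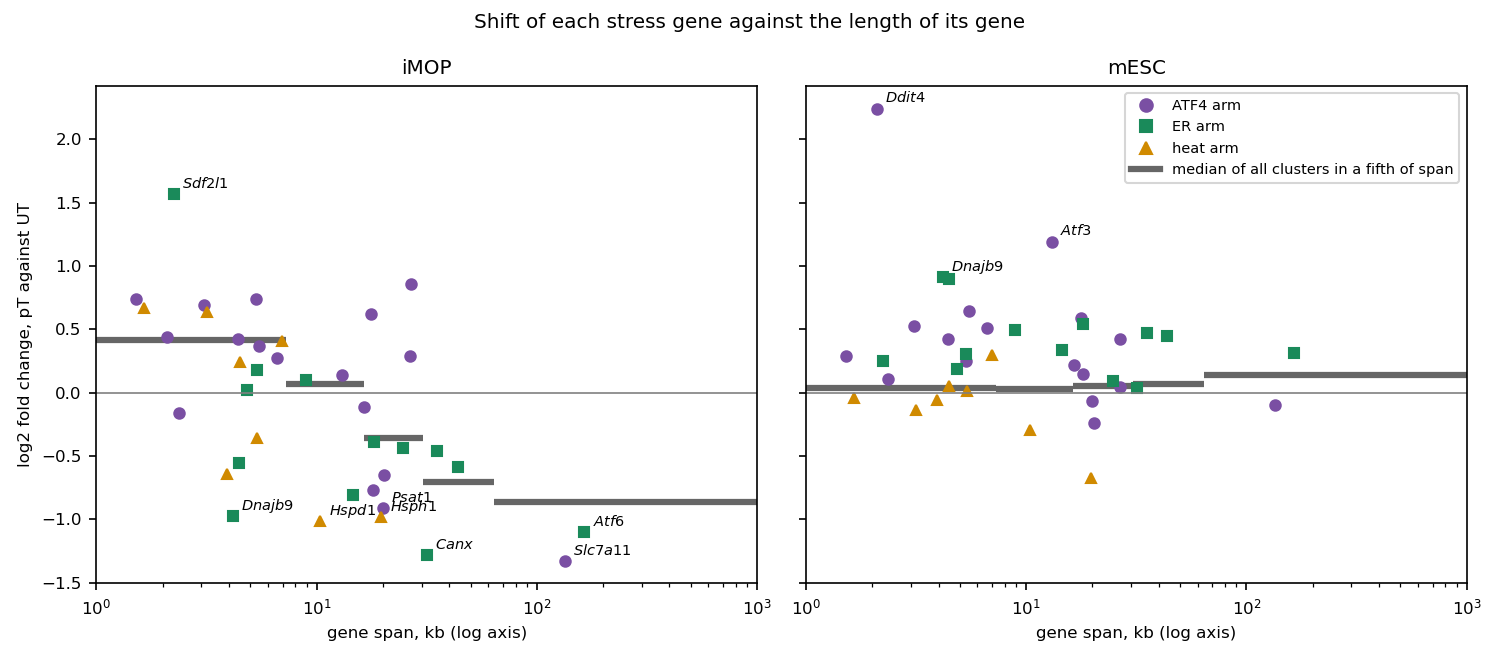
log2 fold change of each stress gene in pT against UT (vertical axis) against the span of its gene in kb (log axis), in iMOP cells (left) and mESCs (right); grey bars are the median of all clusters in each of 5 equal bins of span. The bars fall with span in iMOP cells, 0.42 to -0.86, and stay between 0.03 and 0.14 in mESCs.

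Set against the median of clusters of like span, 4 ER genes were above and 9 below in iMOP cells, and 12 above and 1 below in mESCs. For the difference between the lines 1 was above and 12 below. The median of the ER arm relative to clusters of like span was -0.24 in iMOP cells, against -0.46 as measured. With the span trend taken off each array, a setting chosen after the data were seen, 35 of the 38 genes could be fitted, and the ER arm had 1 higher and 4 lower in iMOP cells, 6 higher and none lower in mESCs, and 1 higher and 6 lower in the difference. Over the 3 arms the counts were 5 higher and 11 lower in iMOP cells (31.2% and 31.5% of these clusters), 10 higher and 3 lower in mESCs (12.1% and 8.98%), and 3 higher and 14 lower in the difference (24.8% and 25.8%).

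Named genes parted under this setting. In iMOP cells *Hspa5* shifted by -0.88 and was called (adjusted p = 0.00434), and *Dnajb9* (-1.32), *Canx* (-0.75), *Hsp90b1* (-0.68), *Hspd1* (-1.05) and *Sdf2l1* (1.11) were still called. *Atf6* (-0.30), *Mthfd2* (-0.35), *Chac1* (0.29), *Hspb1* (0.17), *Hspe1* (0.24), *Hmox1* (0.21) and *Edem1* (0.12, with the sign turned) were not. *Atf4* (-0.61, adjusted p = 0.00138), *Hsp90aa1* (-0.63) and *Slc7a5* (0.73) became called in iMOP cells, and *Mthfd2* (-0.30) and *Hspd1* (-0.33) in mESCs. The differences between the lines for *Hspa5* (-1.75), *Dnajb9* (-2.20), *Ddit4* (-2.24) and *Sdf2l1* (0.89) remained called, and those of *Atf6*, *Dnajc3*, *Edem1*, *Hspb1* and *Hspe1* were not. Differences gained a call for *Phgdh* (0.95), *Slc7a5* (0.75), *Atf4* (-0.69), *Hsp90aa1* (-0.61) and *Herpud1* (-0.46).

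Further genes of the same pathways were read from lists, of which the 3 most raised and most lowered called genes are named. Of 33 other ER genes 4 rose (12.1%) and 13 fell (39.4%) in iMOP cells, and 6 rose (18.2%) and none fell in mESCs. For all clusters these shares were 19.4% higher and 21.9% lower in iMOP cells and 7.07% higher in mESCs, and for well-expressed ones 21.6%, 45.3% and 16.1%. In iMOP cells *Atf6b* (1.02), *Syvn1* (0.69) and *Derl3* (0.56, at dim levels) rose, while *Mbtps2*, a protease that cleaves ATF6 (-1.76), *Ero1a*, an oxidase that recharges disulfide isomerases (-1.73), and *Dnajc10* (-1.42) fell. In mESCs *Derl3* (0.83), *Txndc11* (0.66) and *Sec24d* (0.61) rose. The well-expressed shares come from a test of those clusters alone, in which the listed genes were not counted. Whether the other ER genes stand out from well-expressed clusters was thus not tested.

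Of 23 other measured ATF4 arm genes 2 rose (8.70%) and 12 fell (52.2%) in iMOP cells, and 5 rose (21.7%) and 1 fell in mESCs. *Ppp1r15a* (GADD34), which restores translation, rose in both lines, by 0.53 and 0.83. In iMOP cells *Eif4ebp1* also rose (0.58), and *Aldh1l2* (-1.79), *Slc38a2* (-1.35) and *Cebpg* (-1.33) fell; in mESCs *Vldlr* (0.85) and *Eif2ak4*, which codes for GCN2 (0.61), rose and *Cth* (-0.55) fell. Of 11 tRNA synthetase genes 7 fell in iMOP cells (63.6%), led by *Lars* (-1.57), *Eprs* (-1.42) and *Nars* (-1.29), and none was called in mESCs. Of 28 other heat shock and chaperonin genes 3 rose (10.7%) and 17 fell (60.7%) in iMOP cells. In mESCs 3 rose (10.7%) and none fell, where 7.07% of all clusters rose and 6.07% fell. The shares of these lists that fell in iMOP cells were above the 21.9% of all clusters and the 45.3% of well-expressed ones. The 45.3% comes from a test of well-expressed clusters alone, in which these lists were not counted. In the longest bins of gene span 63.5% and 72.9% of clusters fell there, and the part of span in these lists was not tested. *Bag3*, an HSF1 target, rose by 0.62 in iMOP cells and by 0.60 in mESCs. The largest fall in iMOP cells was that of *Chordc1* (-1.52), with *Hspa9* and *Cct4* at -1.41 each, and the largest rise in mESCs that of the collagen chaperone *Serpinh1* (1.11).

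Immediate early genes, which answer many stimuli and handling steps within minutes, stood higher in both lines: 10 of 14 rose in iMOP cells, with *Egr1* at 1.86, and 7 of 14 in mESCs, with *Fos* at 2.59. None fell. For comparison, 19.4% of all clusters rose in iMOP cells and 7.07% in mESCs, and 21.6% and 16.1% of well-expressed ones. Of 12 oxidative stress genes that NRF2 controls 2 rose and 4 fell in iMOP cells, and 4 rose and none fell in mESCs. In iMOP cells 21.9% of all clusters and 45.3% of well-expressed ones fell. *Srxn1* rose in both (0.66 and 0.67), and *Txnrd1* fell by 0.75 in iMOP cells and rose by 0.69 in mESCs.

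Markers of other cells were read beside these shifts. Among all clusters 19.4% rose and 21.9% fell in iMOP cells, and 7.07% rose and 6.07% fell in mESCs, to be read beside each marker count. Of 13 measured fibroblast markers 3 rose (23.1%) and 1 fell (7.69%) in iMOP cells, and 2 rose (15.4%, *Pdgfrb*, 0.70, and *Pdgfra*, 0.69) in mESCs. The share that rose in iMOP cells was near that of all clusters. Their summed log2 level was 59.9 to 62.0 in iMOP pT, against 56.9 to 59.1 in iMOP UT, and 61.2 to 61.7 in mESC pT, against 60.9 to 61.9 in mESC UT. *Lum* had the lowest mean in each of these groups (2.21 to 2.79). The mESC sum hides opposite shifts: *Col1a1* was 5.79, 5.79 and 5.71 in mESC pT, against 6.43, 6.11 and 6.09 in mESC UT. These *Col1a1* arrays did not overlap and lay the other way from *Pdgfrb* and *Pdgfra*. The summed level of 10 pluripotency markers was 84.9 to 87.2 in mESC pT, against 89.8 to 90.7 in mESC UT, and 4 of them fell. That of 9 otic markers was 57.3 to 58.7 in iMOP pT, against 56.6 to 58.1 in iMOP UT, a sum that hides opposite shifts: 4 rose, with *Dlx5* at 1.03 and *Lfng* at 0.91, and 3 fell, *Jag1* by 1.10, *Sox2* by 0.92 and *Eya1* by 0.80. The part of these cells and of the immediate early genes in the stress gene shifts was not tested, and in bulk RNA fewer cells of a type and less RNA per cell cannot be told apart.

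The other vectors were compared with pT to ask whether Atoh1 or the miR-183 family moved the stress genes beyond the RFP vector. None of the 38 genes was called by limma in any of the 6 comparisons. In pAT, p183T and p183AT against pT, 2, 2 and 0 genes had an unadjusted p under 0.05 in iMOP cells (5.26%, 5.26% and 0%), where 6.69%, 3.87% and 6.42% of all clusters did. In mESCs 4, 0 and 5 did (10.5%, 0% and 13.2%), where 8.33%, 2.33% and 11% of all clusters did. At an adjusted p under 0.05 the shares of all clusters were 0.0197%, 0.0118% and 0.138% in iMOP cells and 0.797%, 0.0118% and 1.05% in mESCs. In pAT against pT in mESCs 0.517% of clusters were called higher and 0.280% lower, in p183AT against pT 0.738% and 0.316% in mESCs, and 0.122% and 0.0158% in iMOP cells. Shifts lay between -0.53 and 0.29 in iMOP cells and between -0.56 and 0.48 in mESCs. Over well-expressed clusters, shift and gene span had rank correlations of 0.38, 0.05 and 0.39 for pAT, p183T and p183AT against pT in iMOP cells. They were 0.12, -0.01 and 0.24 in mESCs, and the part of span in these shifts was not tested. With dim clusters left out, *Atf5* was called in pAT against pT in mESCs (0.43, adjusted p = 0.0350, against 0.130 with all clusters). *Hspb1* had the lowest value, -0.56 in p183AT against pT in mESCs (adjusted p = 0.141).

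**Figure D5:**
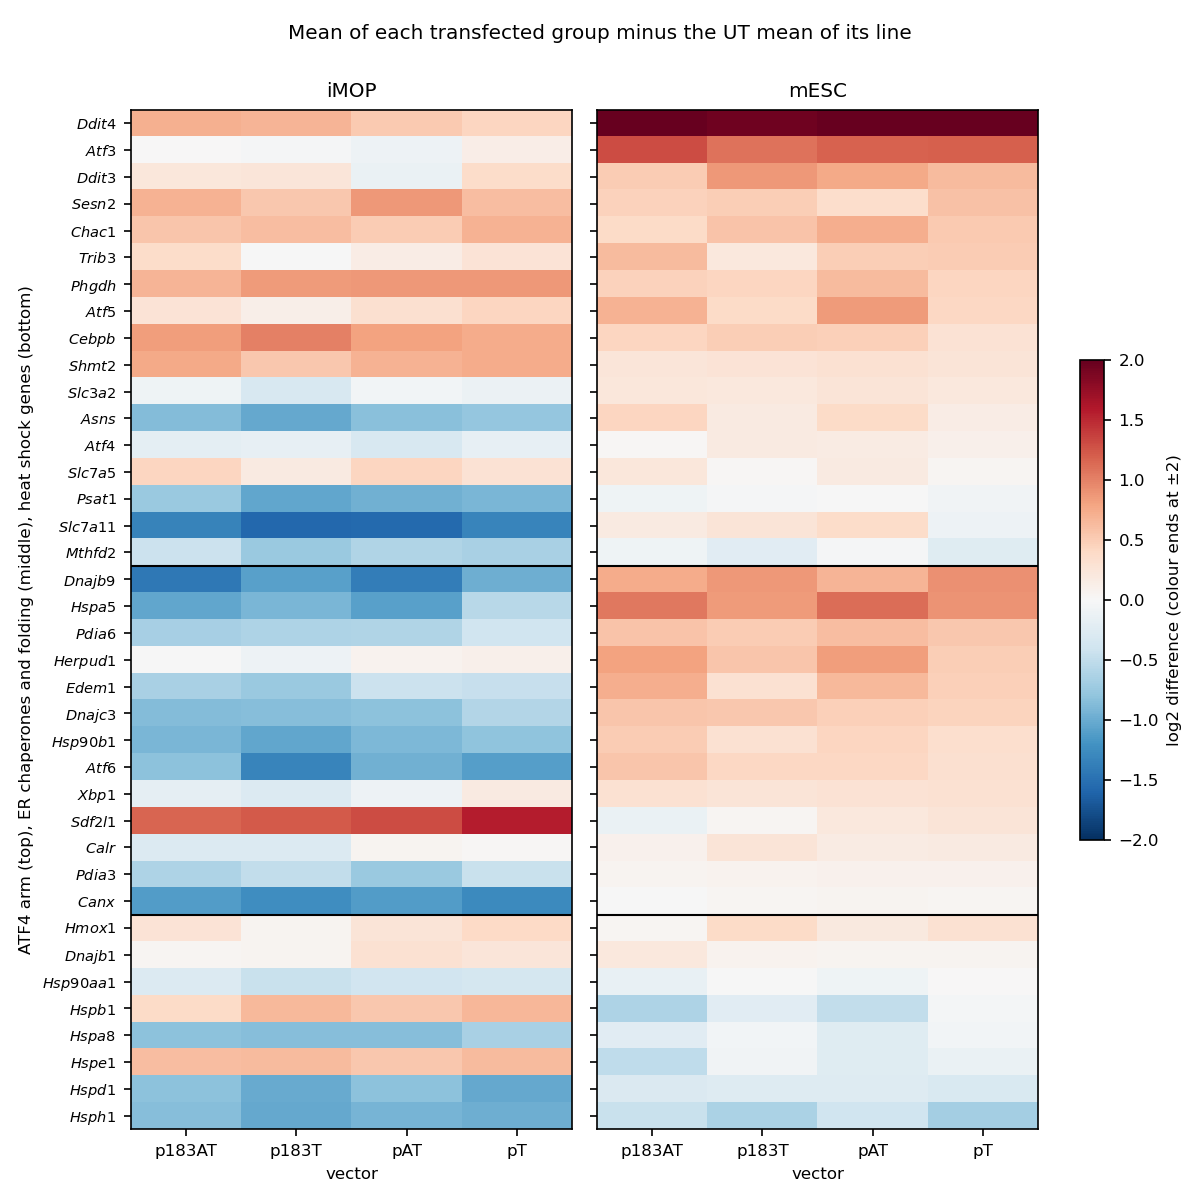
Mean log2 level of each stress gene in p183AT, p183T, pAT and pT minus the UT mean of its line, in iMOP cells (left) and mESCs (right); red is higher and blue lower than UT, with colours ending at ±2. Within a line the 4 columns are much alike, and between lines many ER genes change colour. In pT *Sdf2l1*, *Herpud1*, *Xbp1* and *Calr* were above UT in both lines.

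The 4 vectors of a line share its UT arrays as control, so they were read together. In iMOP cells 6 genes had all 12 transfected arrays above the 3 UT arrays and 11 had all of them below, where 15.1% and 19.6% of all clusters did. In mESCs 13 genes had all transfected arrays above and none below, where 7.46% and 5.95% did. The ER arm held 7 of the 11 in iMOP cells (*Atf6*, *Hspa5*, *Canx*, *Pdia6*, *Dnajb9*, *Dnajc3* and *Edem1*) and 7 of the 13 in mESCs (*Xbp1*, *Hspa5*, *Pdia6*, *Dnajb9*, *Dnajc3*, *Herpud1* and *Edem1*). *Hspa5* ranged over 7.22 to 8.42 in transfected iMOP arrays (median 7.89), against 8.65 to 8.87 in UT (median 8.84), and over 8.79 to 9.26 in transfected mESC arrays (median 9.05), against 7.85 to 8.22 in UT (median 8.02). The iMOP arrays were spread more widely. *Sdf2l1* ranged over 8.97 to 9.99 in transfected iMOP arrays (median 9.40), against 7.62 to 8.54 in UT (median 8.08), and *Ddit4* over 7.39 to 9.01 in transfected mESC arrays (median 8.11), against 5.75 to 6.17 in UT (median 6.12).

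The untransfected lines differed from the start. In UT iMOP cells against UT mESCs 13 of the 38 genes were higher and 13 lower, where 18.3% of all clusters were higher and 39.2% lower (57.5% in all), and the median of all clusters was -0.20 (0.01 after quantile normalization of the 30 arrays). The largest differences were in the heat arm: *Hspb1* was 3.88, 3.63 and 3.50 in UT iMOP cells, against 9.16, 9.05 and 8.67 in UT mESCs (-5.29 ± 0.16, adjusted p = 1.5e-09, dim in iMOP cells), and *Hmox1* was 6.12, 5.85 and 6.35, against 9.25, 9.24 and 8.99 (-3.05 ± 0.15). *Hsph1* (0.95), *Hsp90aa1* (0.47) and *Hspe1* (0.32) were higher and *Dnajb1* (-0.95) lower in iMOP cells.

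In the ATF4 arm *Ddit4* (2.30 ± 0.17, 4.91-fold), *Phgdh* (2.01), *Slc7a11* (1.96), *Mthfd2* (0.45) and *Atf4* (0.40) were higher in UT iMOP cells. *Sesn2* (-1.22), *Slc3a2* (-0.85), *Slc7a5* (-0.80), *Asns* (-0.62), *Chac1* (-0.46) and *Ddit3* (-0.37) were lower. *Ddit4*, which rose in transfected mESCs, was thus already at 8.33, 8.05 and 8.55 in UT iMOP cells, against 6.12, 6.17 and 5.75 in UT mESCs. In the ER arm *Pdia6* (2.13 ± 0.12, 4.38-fold), *Herpud1* (1.10), *Hsp90b1* (0.89), *Dnajc3* (0.82) and *Hspa5* (0.76) were higher and *Dnajb9* (-1.78), *Xbp1* (-1.13), *Edem1* (-0.94) and *Pdia3* (-0.39) lower. Of the 26 calls 19 held whichever array was left out. *Atf4* was lost without iMOP UT replicate 3, *Asns* without iMOP UT replicate 2, *Hsp90aa1* without mESC UT replicate 1 or iMOP UT replicate 2, *Pdia3* without mESC UT replicate 1, mESC UT replicate 3 or iMOP UT replicate 1, and *Ddit3*, *Chac1* and *Hspe1* without 5 of the 6 arrays, with adjusted p up to 0.128.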

How the data were processed

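RNA of 30 samples (200 ng each) was read on the Affymetrix Mouse Gene 2.0 ST array. The authors made the deposited log2 values by RMA in Expression Console 1.4.1.46, which corrects background, quantile normalizes and summarizes probes per transcript cluster; it is not stated if the 30 arrays went through 1 run. RMA sets arrays to a like distribution, so a shift of all RNA cannot be seen, and with 3 arrays a group only larger shifts can be called. Symbols came from the platform annotation: of 41345 clusters, 25341 had a symbol and were tested, 23521 with 1 symbol and 1820 with several, and 16004 had none. The members and lists were chosen with earlier results of these data known.

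Groups were taken from the sample labels. limma 3.58.1 (lmFit, contrasts.fit and eBayes, R 4.3.3) was fitted to the 15 arrays of a line for pT against UT and each vector against pT, to all 30 arrays for the difference between lines, and to the 6 UT arrays for the lines, with Benjamini-Hochberg adjustment over all tested clusters. The scripts were first tested on simulated data. Replicates are described as distinct biological samples; where they do not come from separate cultures, p-values measure only the spread between these samples. Values on every array are given for members called in pT against UT with a log2 fold change of at least 1 in size, for *Atf4*, *Xbp1*, *Atf6* and *Hspa5*, and for members called against pT; arrays of other genes of interest were added after their values were seen. From each other list the 3 most raised and 3 most lowered called genes could be named. A group mean under 5 was taken as dim.

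Alternatives were 1 fit of all 30 arrays, the compared arrays alone, the replicate number as a block, quantile normalization over 30 arrays, leaving out dim clusters (those kept reached log2 6 on 3 or more arrays), an intensity trend, the mean of a gene's clusters, the methods' test and each array left out. Removal of the trend with gene span, and the methods' test at the study's thresholds, were chosen after seeing the data. Promoter windows and gene spans came from RefSeq (GRCm38.p6), searched with Python 3.11.15. Protein sequences were not used here.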

Additional observations from a re-analysis of the deposited data

Results flagged for a closer look

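For 18 stress genes the pT against UT shift differed between the lines in limma's test of the difference itself (iMOP shift minus mESC shift, log2 scale, 3 arrays a group). In the ER arm these were *Dnajb9* (-1.89), *Hspa5* (-1.45), *Atf6* (-1.41), *Canx* (-1.32), *Hsp90b1* (-1.15), *Dnajc3* (-1.03), *Pdia6* (-0.94), *Edem1* (-0.93) and *Sdf2l1* (1.31). In the ATF4 arm they were *Ddit4* (-1.81), *Slc7a11* (-1.23), *Atf3* (-1.06), *Asns* (-0.92) and *Psat1* (-0.85). In the heat shock arm they were *Hspd1* (-0.72), *Hspa8* (-0.58), *Hspb1* (0.71) and *Hspe1* (0.78). *Dnajb9* and *Edem1* were called in opposite directions in the lines. Transfection reagent and sort handling differ with the line and cannot be told apart from it.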

How the results depend on the processing

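Of the counts called in pT against UT, 11 genes in mESCs (10 higher, 1 lower) and 21 in iMOP cells (9 higher, 12 lower), that of mESCs stood at 7 (6 higher) both with 1 fit of all 30 arrays and with quantile normalization over 30 arrays. The methods' test, adjusted, gave 2 in mESCs (2 higher, 0 lower) and 4 in iMOP cells (3 higher, 1 lower). With the span trend removed, 3 were lower in mESCs and 5 higher in iMOP cells, and *Edem1* turned to 0.12 in iMOP cells. In pAT against pT in mESCs 1 gene, *Atf5*, was called (higher) with dim clusters left out. With each array left out in turn, 6 to 9 genes were called in mESCs (5 to 8 higher, 1 lower), 14 to 21 in iMOP cells (7 to 9 higher, 7 to 14 lower), 16 to 19 for the difference (3 to 4 higher, 13 to 15 lower), 22 to 24 between UT lines (11 to 12 higher, 10 to 13 lower) and 0 against pT. The cause of these changes was not tested. Replicate numbers did not pair the pT arrays with the UT arrays. Same-numbered pT and UT arrays correlated in their deviations at 0.02, -0.04 and -0.03 in iMOP cells and at 0.04, 0.05 and -0.12 in mESCs. Whether replicate numbers pair arrays of the 4 vectors with each other was not tested in this way. Some members, picked after their values were seen, shared a replicate order in mESCs. *Hmox1* was highest in replicate 3 of pT (10.12), pAT (9.86), p183T (10.23) and p183AT (9.96), and *Ddit3* was lowest there (6.01, 5.90, 5.97 and 5.57). The main tests against pT did not use the replicate number. With the replicate block 11 genes were called in mESCs (10 higher, 1 lower), 25 in iMOP cells (10 higher, 15 lower), 20 for the difference (4 higher, 16 lower) and 0 against pT; the block could not be fitted to the UT lines.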
